A study of Homo sapiens with 6 samples.

Results

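The inflammatory chemokine and NF-kB feedback genes examined here were the chemokines CXCL1, CXCL2, CXCL3, CXCL5, CXCL8, CCL2 and CCL20, the cytokine IL6, and the NF-kB inhibitors NFKBIA and TNFAIP3. They were selected by gene symbol, and the list was drawn up with earlier results of these data known. Each symbol was present in the expression table, giving 10 of 33007 genes. RNA-seq was performed in LM3 cells, an established human hepatocellular carcinoma (HCC) line, and compared 3 control samples with 3 ZNF706 knockdown samples of stably depleted cells. The control cells carried the vector alone, whereas the knockdown cells carried a lentiviral short hairpin RNA against ZNF706, which encodes a zinc finger protein. Both groups were labelled wild type in genotype. The infected cells were selected with puromycin according to the methods. The paper describes independent hairpins against ZNF706 but does not name the one sequenced. An effect of a single hairpin or of one infected population therefore cannot be told apart from that of ZNF706. The comparison asked how the transcriptome of LM3 cells changed when ZNF706 was depleted. The depth was 62684076, 64713764 and 63054445 counts for the control libraries, and 68548419, 65861994 and 69057423 counts for the knockdown libraries. Nothing in the labels says that samples of one group came from separate cultures, so p-values here measure only the spread between these samples.

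NF-kB is a family of dimeric transcription factors that are held in the cytoplasm by inhibitory IkB proteins. Signals from TNF, IL-1 or Toll-like receptors activate the IKK kinase complex, which marks IkB for degradation and lets NF-kB enter the nucleus. There it binds kappaB motifs in DNA and switches on chemokines, IL6 and its own inhibitors, among them NFKBIA and TNFAIP3, which close a negative feedback loop. In liver tumours, CXC chemokines recruit neutrophils through CXCR1 and CXCR2, CCL2 recruits monocytes through CCR2, CCL20 recruits CCR6-bearing lymphocytes, and IL-6 activates STAT3 in hepatocytes.

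ZNF706 itself was lower in the knockdown. Control samples had 3211, 3504 and 3357 counts and knockdown samples 2350, 2068 and 2298, with no overlap. The fitted level fell by 39.9% (log2 fold change -0.73, SE 0.05, edgeR quasi-likelihood test with Benjamini-Hochberg adjustment, adjusted p = 3.7e-05).

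Among the 10 genes, CCL2, CCL20, CXCL2, IL6 and TNFAIP3 fell after ZNF706 knockdown, and none rose. CCL20 and CCL2 showed fitted falls of 67.4% and 60.7%, CXCL2 and IL6 of 45.2% and 41.8%, and TNFAIP3 of 27.4%. CXCL1, CXCL3, CXCL5, CXCL8 and NFKBIA did not pass the test. All 10 passed the filter on low counts, and all 10 fitted log2 fold changes were below 0, with a median of -0.66 beside 0.0095 over the 18390 genes tested. CXCL5 alone turned above 0 when single libraries were left out. A gene was called changed at an adjusted p below 0.05. By that rule 22.8% of all tested genes were called, 12.4% lower and 10.4% higher, beside 5 of the 10 genes called lower. Since the list was chosen with earlier results known, this share is a description and not independent evidence. For 4 of the 10, CCL2, CXCL2, IL6 and TNFAIP3, every knockdown value lay below every control value, which was the case for 19.7% of all tested genes (39.4% in either direction). The count of 5 rested in part on single libraries and on the filter. It was 3 without knockdown replicate 3, 3 with no filter on low counts and 2 in limma on unfiltered FPKM values, and IL6 and CCL2 were the genes called lower under each of the 17 other settings.

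**Figure D1:**
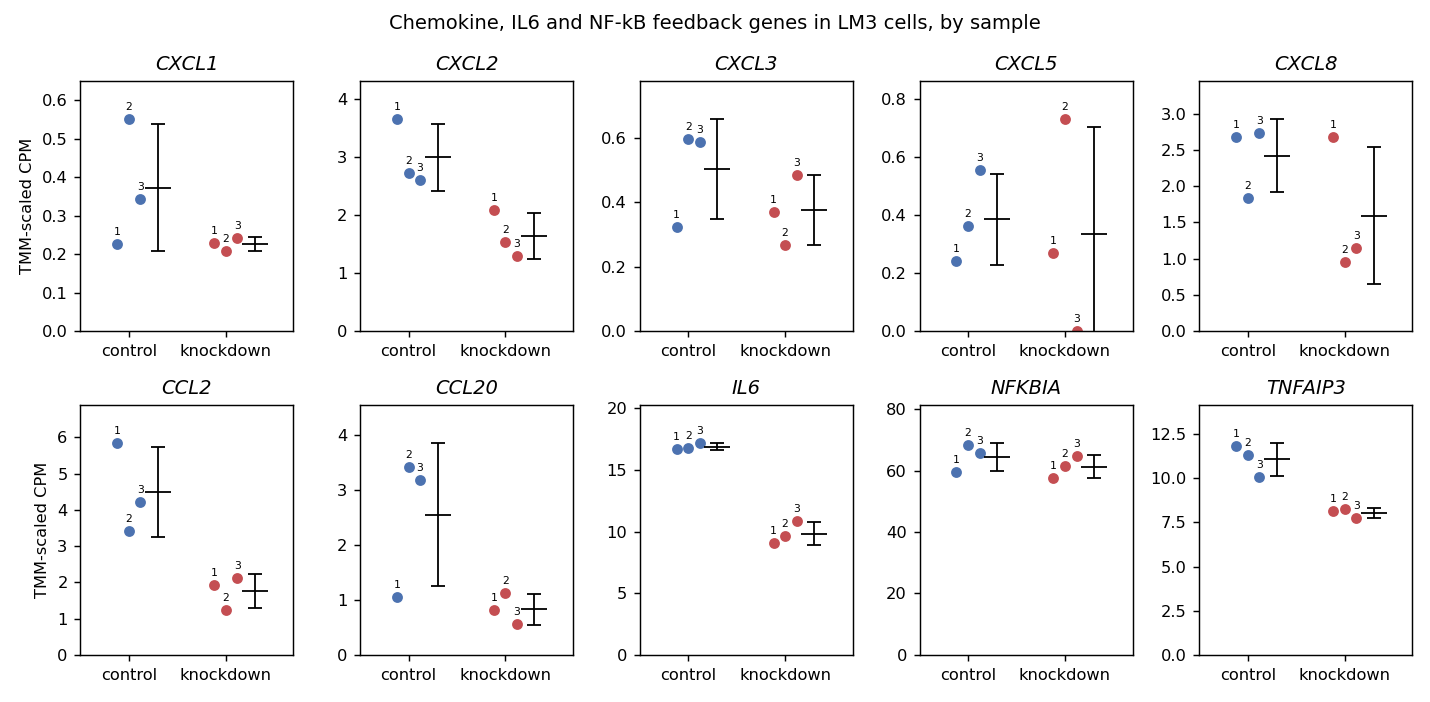
CPM, a gene's counts relative to its library's total, scaled by the trimmed mean of M-values (TMM; vertical axes from 0, a separate scale for each gene) in the 3 control samples (blue) and the 3 ZNF706 knockdown samples (red), with replicate numbers; black bars show the mean and SD, and the lower arm for CXCL5 in the knockdown is cut at 0. The groups were apart for CCL2, CXCL2, IL6 and TNFAIP3 and overlapped for the other genes.

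The promoters are shown because these genes are known NF-kB targets and because 5 of them fell together. RefSeq windows from 250 bases before to 50 bases after the start (GRCh38.p14) were matched for 9 of the 10 genes, all but CCL2, and were searched on both strands. The kappaB consensus, a motif of 10 letters, was found in 8 of these 9 windows and in 5.91% of all 35116 windows. The shorter form GGNNTTTCC, which overlaps the consensus, was found in 9 of 9 and in 6.26% of all windows. Its special case GGAATTTCC was found in 6 of 9 and in 0.461% of all windows. Capitals mark bases matched by the kappaB consensus on either strand or, in CXCL8, by GGAATTTCC, and each window is printed 5′ to 3′ on the strand of its gene.
CXCL1: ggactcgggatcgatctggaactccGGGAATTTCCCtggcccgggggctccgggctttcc
CXCL2: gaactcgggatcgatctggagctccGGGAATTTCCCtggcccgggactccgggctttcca
CXCL3: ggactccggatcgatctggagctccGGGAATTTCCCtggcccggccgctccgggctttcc
CXCL5: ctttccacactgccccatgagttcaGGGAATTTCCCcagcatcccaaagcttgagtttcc
CXCL8: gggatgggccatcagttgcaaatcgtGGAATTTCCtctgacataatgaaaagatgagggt
CCL20: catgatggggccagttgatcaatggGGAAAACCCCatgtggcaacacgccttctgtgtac
IL6: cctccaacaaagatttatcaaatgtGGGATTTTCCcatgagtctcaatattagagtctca
NFKBIA: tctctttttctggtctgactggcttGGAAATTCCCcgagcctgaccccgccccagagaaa
TNFAIP3: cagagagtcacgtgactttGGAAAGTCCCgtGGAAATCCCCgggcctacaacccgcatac
The windows lay at chr4:73869289-73869348 for CXCL1 (plus strand), chr4:74099239-74099298 for CXCL2 (minus strand), chr4:74038734-74038793 for CXCL3 (minus strand), chr4:73998734-73998793 for CXCL5 (minus strand), chr4:73740452-73740511 for CXCL8 (plus strand), chr2:227813738-227813797 for CCL20 (plus strand), chr7:22727102-22727161 for IL6 (plus strand), chr14:35404796-35404855 for NFKBIA (minus strand) and chr6:137867173-137867232 for TNFAIP3 (plus strand). In CXCL1, CXCL2, CXCL3 and CXCL5 the marked bases were identical. In these 4 genes the consensus matched both strands at nearly the same place, which is counted as 1 site. TNFAIP3 was the gene with 2 separate sites of the kappaB consensus, both on the strand opposite to the gene. The shorter form GGNNTTTCC had a further match, not marked here, in CXCL1, CXCL2 and CXCL3 (53 bases before the start). NFKBIA had one at 242 bases before the start. The marked matches began between 91 and 55 bases before the RefSeq start. For CXCL3, CCL20 and IL6 the window lay inside the span of the gene in the expression table. The window of TNFAIP3 lay partly inside its span. In these genes the RefSeq start thus lies downstream of the start in that table. A match is a description of the letters and not evidence of binding, and genes that fell (CXCL2, CCL20, IL6, TNFAIP3) and genes that did not pass the test (CXCL1, CXCL3, CXCL5, CXCL8, NFKBIA) both carried one.

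Levels differed widely among the 10 genes. On the length-corrected FPKM scale, NFKBIA was the most abundant in control cells (23.4 ± 1.54 FPKM, SD, n = 3), followed by IL6 (7.02 ± 0.0551 FPKM), and neither overlapped the gene next below it. CCL2 (1.94 ± 0.553 FPKM), TNFAIP3 (1.89 ± 0.173 FPKM), CXCL2 (1.84 ± 0.369 FPKM), CCL20 (1.36 ± 0.700 FPKM) and CXCL8 (0.923 ± 0.193 FPKM) came next, and each overlapped its neighbour in this order. CXCL1, CXCL3 and CXCL5 were the lowest, at 0.223 ± 0.0971, 0.187 ± 0.0586 and 0.130 ± 0.0557 FPKM, and were not separated from each other. The 5 genes that fell held ranks 2 to 6 of the 10, below NFKBIA. The genes ranked below them, CXCL8, CXCL1, CXCL3 and CXCL5, did not pass the test. Low counts of CXCL1, CXCL3 and CXCL5 limit what could be detected for them.

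Of the CXC chemokines, which share a cluster on chromosome 4 and draw neutrophils, CXCL2 (chr4:74097040-74099195) was the one that fell. Its counts were 226, 173 and 160 in control samples and 146, 103 and 91 in knockdown samples. All knockdown samples lay below all control samples, although knockdown replicate 1 came close to the lowest control. The level was 2.99 ± 0.573 CPM (SD, n = 3) in control cells and 1.64 ± 0.401 CPM in knockdown cells, a log2 fold change of -0.87 (SE 0.23, edgeR adjusted p = 0.024). This call was sensitive to single libraries. The adjusted p was 0.082 without control replicate 1, 0.085 without knockdown replicate 2 and 0.076 without knockdown replicate 3.

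CXCL1 and CXCL3, the closest paralogs of CXCL2 and ligands of the same receptor, were detected at low counts. CXCL1 (chr4:73869393-73871308) had 14, 35 and 21 counts in control samples and 16, 14 and 17 in knockdown samples. Control replicate 2 was high and control replicate 1 lay among the knockdown values. The fitted log2 fold change was -0.71 (SE 0.53, edgeR adjusted p = 0.39), with a 95% interval from -1.90 to 0.47, and it was -0.33 without control replicate 2. CXCL3 (chr4:74036589-74038807) had 20, 38 and 36 counts against 26, 18 and 34, and the groups overlapped. Its log2 fold change was -0.42 (SE 0.45, edgeR adjusted p = 0.57), with an interval from -1.44 to 0.60. It was -0.23 without knockdown replicate 2, -0.28 without control replicate 2, -0.65 without knockdown replicate 3 and -0.66 without control replicate 1. At these counts, changes of the size seen for CXCL2 lay within both intervals. Because reads from these near-identical transcripts may have been split between them by the authors' counting, the counts of the 3 genes were also added. The sum was 260, 246 and 217 in control samples and 188, 135 and 142 in knockdown samples, with no overlap. The summed level fell from 3.87 ± 0.333 to 2.24 ± 0.381 CPM (log2 fold change -0.79, SE 0.18, edgeR adjusted p = 0.010). CXCL2 made up 77.3% of the summed counts in control samples and 73.1% in knockdown samples.

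CXCL5 (chr4:73995642-73998677), another neutrophil attractant, was the most variable of the 10. Its counts were 15, 23 and 34 in control samples and 19, 49 and 0 in knockdown samples. Knockdown replicate 2 was above and knockdown replicate 3 below every control, so the groups overlapped fully. The fitted log2 fold change was -0.21 (SE 0.99, edgeR adjusted p = 0.91), with an interval from -2.42 to 2.0. Its sign was decided by single libraries, since it was 0.37 without knockdown replicate 3, 0.14 without control replicate 3 and -1.50 without knockdown replicate 2.

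CXCL8 (chr4:73740541-73743716), the main human neutrophil chemokine, had 166, 117 and 168 counts in control samples and 188, 64 and 80 in knockdown samples. Knockdown replicate 1 was at the control level, while the other 2 knockdown samples lay below every control. The level was 2.42 ± 0.502 CPM in control cells and 1.59 ± 0.947 CPM in knockdown cells, a log2 fold change of -0.60 (SE 0.37, edgeR adjusted p = 0.29) with an interval from -1.43 to 0.22. Without knockdown replicate 1 the log2 fold change was -1.20 and passed the test (edgeR adjusted p = 0.017). Without knockdown replicate 2 it was -0.34 (edgeR adjusted p = 0.61), and without knockdown replicate 3 it was -0.41 (0.56).

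Among the CC chemokines, CCL2 (chr17:34255218-34257203), the monocyte attractant, had 362, 217 and 259 counts in control samples and 135, 83 and 149 in knockdown samples. The highest knockdown sample stayed well below the lowest control sample. CCL2 was 4.49 ± 1.24 CPM in control cells and 1.76 ± 0.467 CPM in knockdown cells, a log2 fold change of -1.35 (SE 0.26, edgeR adjusted p = 0.0047). Leaving out any one sample gave log2 fold changes from -1.51 to -1.12, each past the test.

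CCL20 (chr2:227805739-227817556), the ligand of CCR6, had 65, 217 and 195 counts in control samples and 57, 75 and 39 in knockdown samples. Control replicate 1 lay inside the knockdown range, far below the other 2 controls. The level was 2.55 ± 1.30 CPM in control cells and 0.829 ± 0.281 CPM in knockdown cells, with a log2 fold change of -1.62 (SE 0.43, edgeR adjusted p = 0.023). The log2 fold change was -1.99 without control replicate 1 and lay between -1.89 and -1.35 in the other fits that left out a sample. The call was lost without control replicate 2 (edgeR adjusted p = 0.095), control replicate 3 (0.086), knockdown replicate 1 (0.068) or knockdown replicate 3 (0.077).

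IL6 (chr7:22725884-22732002), the cytokine that signals through IL6R and IL6ST to STAT3, had the tightest control values of the 10. Its counts were 1032, 1068 and 1055 in control samples and 634, 645 and 758 in knockdown samples. The groups were far apart compared with the spread within each. IL6 was 16.9 ± 0.267 CPM in control cells and 9.83 ± 0.915 CPM in knockdown cells, a log2 fold change of -0.78 (SE 0.09, edgeR adjusted p = 4.5e-04). Fits leaving out a sample ranged from -0.86 to -0.72, and each passed the test. The antisense gene IL6-AS1, which overlaps IL6, had 39, 39 and 31 counts in control samples and 15, 38 and 21 in knockdown samples. How the authors' counting treated strand is not given in the sources used here, so reads of the pair may not be fully separated.

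The 2 feedback inhibitors differed from each other in their values. NFKBIA (chr14:35401513-35404749), which encodes the IkB protein IkB-alpha, had 3678, 4343 and 4029 counts in control samples and 4031, 4134 and 4531 in knockdown samples. Once scaled for library size the groups overlapped, at 64.5 ± 4.56 and 61.3 ± 3.65 CPM. The log2 fold change was -0.07 (SE 0.06, edgeR adjusted p = 0.44), with an interval from -0.21 to 0.06. The value moved with single libraries, to -0.13 without control replicate 1, -0.11 without knockdown replicate 3, -0.031 without control replicate 2 and -0.028 without knockdown replicate 1. It was -0.17 (edgeR adjusted p = 0.077) with control replicate 1 and knockdown replicate 3 both left out, and NFKBIA was called under none of the 17 other settings. The interval over all 6 samples holds no fall as large as the fitted one of TNFAIP3, and the depth behind NFKBIA was the greatest of the 10 genes.

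TNFAIP3 (chr6:137867214-137883312), a ubiquitin-editing enzyme that dampens signalling upstream of IKK, had 733, 719 and 616 counts in control samples and 571, 552 and 540 in knockdown samples. Every knockdown sample lay below every control sample. TNFAIP3 was 11.1 ± 0.929 CPM in control cells and 8.03 ± 0.274 CPM in knockdown cells, a log2 fold change of -0.46 (SE 0.10, edgeR adjusted p = 0.0092), and it passed the test in all 6 leave-one-out fits. The overlapping antisense gene WAKMAR2 had at most 20 counts in a sample.

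An exact two-sided permutation test over the 6 samples cannot give a p below 0.1. That smallest value was reached by CCL2, CXCL2, IL6 and TNFAIP3, the genes whose groups did not overlap. The exact permutation p was 0.2 for CCL20 and CXCL8, 0.3 for CXCL1 and CXCL3, 0.4 for NFKBIA and 0.8 for CXCL5.

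**Figure D2:**
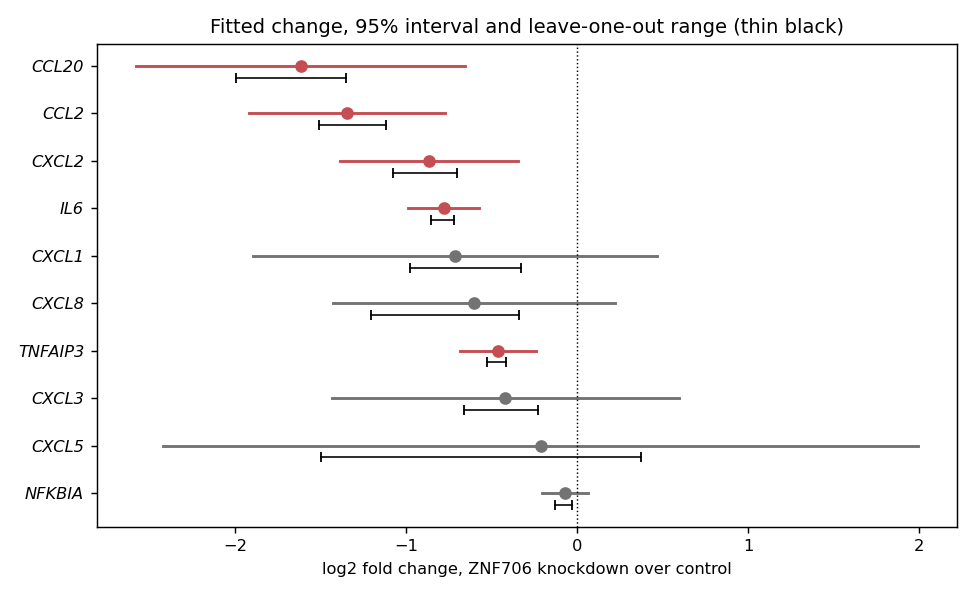
Fitted log2 fold change of ZNF706 knockdown over control (horizontal axis) for each gene, with its 95% interval from edgeR (thick line; red, adjusted p below 0.05) and the range of the 6 fits that each left out a sample (thin black line). CCL20 has the lowest point at -1.62 and NFKBIA the narrowest interval, and the range of CXCL5 crosses 0.

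Samples within a group did not move as one. Control replicate 1 had the highest CCL2, CXCL2 and TNFAIP3 of the control samples and the lowest CCL20, CXCL1, CXCL3, CXCL5, IL6 and NFKBIA. On the scale of log2(CPM + 0.1) minus the gene's mean, control replicate 1 stood at 1.06 for CCL2 and at -0.34 for CCL20. Knockdown replicate 3 was the lowest knockdown sample for CCL20 (-1.15), CXCL2 (-0.71), CXCL5 (-1.94) and TNFAIP3 (-0.28). By contrast it was the highest knockdown sample for CCL2, CXCL1, CXCL3, IL6 (-0.25) and NFKBIA. In CPM, control replicate 1 was also the lowest control sample for each liver epithelial marker examined. Knockdown replicate 3 was the lowest knockdown sample for some of these markers, though not for all. ALB, which encodes albumin, had 189, 899 and 882 counts in control samples and 587, 635 and 138 in knockdown samples, and AFP and EPCAM were likewise lowest in control replicate 1 and knockdown replicate 3. By contrast knockdown replicate 3 had the highest counts of the knockdown samples for APOA1 (0, 4 and 138) and SERPINA1 (116, 75 and 138). With both libraries left out, a fit chosen after seeing the data, IL6 (log2 fold change -0.86), CCL2 (-1.27) and CCL20 (-1.77) were still called lower. In the same fit CXCL2 (-0.56, edgeR adjusted p = 0.18), TNFAIP3 (-0.38, edgeR adjusted p = 0.081) and the summed CXCL1, CXCL2 and CXCL3 (-0.66, edgeR adjusted p = 0.089) were not. The part of these 2 libraries' other differences in the values was not tested.

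**Figure D3:**
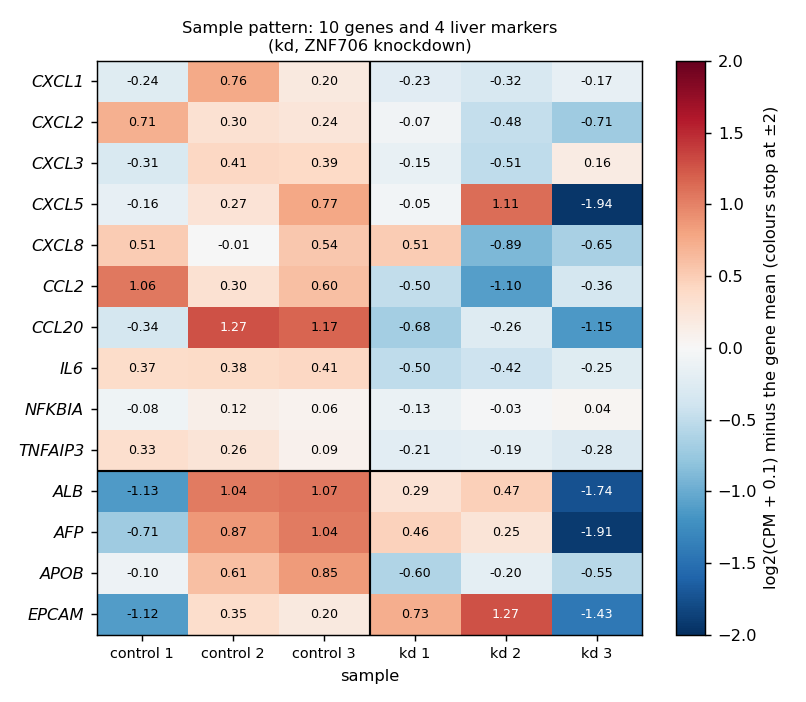
Each cell gives log2(CPM + 0.1) minus the gene's mean over the 6 samples (columns; kd, ZNF706 knockdown) for the 10 genes and, below the line, the liver markers ALB, AFP, APOB and EPCAM; red is above the mean and blue below, with colours stopping at 2 on either side. IL6 and TNFAIP3 separate the groups evenly, while CCL20 and CXCL5 vary between samples of a group, as ALB and AFP do.

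Genes known as markers of cell types were examined beside these values. The samples were cultures of a single cell line, LM3, so these values describe transcripts of the culture and do not measure shares of cell types. In bulk RNA, fewer cells that express a gene and less RNA per cell cannot be told apart. Epithelial keratins were abundant, with KRT18 at 271 ± 10.8 FPKM in control cells and 261 ± 3.48 FPKM in knockdown cells. Summed FPKM of the 9 liver epithelial markers was 455, 466 and 488 in control samples and 454, 469 and 471 in knockdown samples. Nearly all of this sum came from KRT8 and KRT18, so it says little about the other markers. By contrast hepatocyte genes were low, with ALB at 2.63 ± 1.61 FPKM in control cells, TTR at 0 counts in control replicate 1 and knockdown replicate 3, and APOA1 at 0 counts in knockdown replicate 1. Of the 9, APOB (log2 fold change -0.98, edgeR adjusted p = 0.021) and SERPINA1 (-1.47, edgeR adjusted p = 0.0034) were called lower and none higher. APOB lost its call without control replicate 2 or 3 or knockdown replicate 1 or 3 (edgeR adjusted p from 0.066 to 0.087) and with no filter on low counts (0.075).

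Immune cells respond to these chemokines. Genes known as their markers were low in these LM3 cultures apart from CD68 and CSF1R, which are known from macrophages. Of 8 leukocyte markers 6 had values and 5 were tested, and CD68 (log2 fold change 0.64) and CSF1R (0.49) were called higher (edgeR adjusted p = 1.1e-04 and 0.0030). Their summed FPKM was 14.9, 15.0 and 15.0 in control samples and 22.6, 23.6 and 22.9 in knockdown samples, led by CD68 at 10.6 ± 0.202 and 17.1 ± 0.897 FPKM. PTPRC, the defining pan-leukocyte marker, had 8, 8 and 0 counts in control samples and 0 in each knockdown sample. Of 6 fibroblast markers 5 were tested, and COL1A1 (0.20) and PDGFRB (0.68) were called higher (edgeR adjusted p = 0.0023 and 0.0030). Their summed FPKM was 8.95, 8.05 and 8.35 in control samples and 9.85, 10.2 and 9.75 in knockdown samples, led by COL1A1. COL1A2 had 117, 8 and 0 counts in control samples and 0, 0 and 119 in knockdown samples. Its high values were thus in control replicate 1 and knockdown replicate 3. Of 4 endothelial markers 3 had values and 2 were tested, and CDH5 was called lower (log2 fold change -0.70, edgeR adjusted p = 0.0014). The endothelial sum was 1.79, 1.91 and 2.06 FPKM in control samples and 1.43, 1.61 and 1.69 FPKM in knockdown samples, led by CDH5 in control samples and shared about evenly between CDH5 and PECAM1 in knockdown samples, and VWF was at 0 counts in control replicate 1. The part of these markers' changes in the chemokine values was not tested.

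The other genes of the NF-kB and IL-6 pathways were followed in 10 lists. Of 129 genes, 104 were tested, 40 were called lower and 4 higher, and 74 had a log2 fold change below 0. Of all tested genes, 12.4% were called lower, 10.4% higher and 48.7% had a log2 fold change below 0. The median of the 104 log2 fold changes was -0.15, beside 0.0095 over all tested genes. The counts depended on the setting. Scaling by library size alone gave 29 lower and 11 higher, limma on unfiltered FPKM values 22 and 5, and DESeq2 45 and 7. With no filter on low counts it was 27 and 4, and with control replicate 1 and knockdown replicate 3 both left out 25 and 2. Leaving out 1 sample gave 27 to 32 lower and 3 to 5 higher, with the fewest lower without knockdown replicate 2. Other chemokine ligands (median -0.13) were mostly not called. Among the 7 tested, CCL5, a T cell attractant, was the one called, and it was far more abundant per length than any of the 10 genes. CCL5 was 84.0 ± 9.67 FPKM in control cells and 69.4 ± 4.03 FPKM in knockdown cells, a log2 fold change of -0.32 (SE 0.07, edgeR adjusted p = 0.011, or 0.051 without control replicate 2). No gene of this list was called lower with control replicate 1 and knockdown replicate 3 both left out or with no filter on low counts. The CXCR3 ligands CXCL10 (-0.13, SE 0.22) and CXCL11 (-0.33, SE 0.20) and the CXCR6 ligand CXCL16 (0.35, SE 0.16) did not pass the test. CXCL10 was 0.072 without control replicate 2 and -0.29 without control replicate 3, and in the same fits CXCL11 was -0.12 and -0.50. CXCL16 was called higher without control replicate 2 (log2 fold change 0.54, edgeR adjusted p = 0.034).

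Of the receptors for the chemokines and IL-6, 3 were tested (median -0.25), and both chains of the IL-6 receptor fell. IL6ST, the signalling chain, was 306 ± 8.62 CPM in control cells and 222 ± 13.2 CPM in knockdown cells (log2 fold change -0.46, SE 0.05). IL6R, the binding chain, was 34.7 ± 0.765 and 29.2 ± 1.59 CPM (log2 fold change -0.25, SE 0.06). The IL6R call was lost with control replicate 1 and knockdown replicate 3 both left out (-0.19, edgeR adjusted p = 0.097) and in limma on unfiltered FPKM values (adjusted p = 0.083). Downstream, 3 of 8 IL-6 signalling genes were called lower and 1 higher (median -0.09), against 2 lower and 2 higher with scaling by library size alone. The feedback inhibitor SOCS3 fell from 94.3 ± 4.22 to 66.1 ± 1.25 CPM (log2 fold change -0.51, SE 0.04), the transcription factor STAT3 from 275 ± 6.43 to 240 ± 1.47 CPM (-0.20, SE 0.03) and the phosphatase PTPN11 changed by -0.14 (SE 0.03). The PTPN11 call was lost with scaling by library size alone (-0.082, edgeR adjusted p = 0.076) and with the GC trend removed (-0.062, edgeR adjusted p = 0.14). PIAS3, an inhibitor of STAT3, rose by 0.38 (SE 0.08), and its call was lost with the same 2 libraries left out (0.37, edgeR adjusted p = 0.051).

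Receptors upstream of NF-kB were called lower in 3 of 11 cases and higher in none (median -0.22). However, 1 was called higher in DESeq2, with scaling by library size alone and with the replicate block. The same count of 1 higher was found with a mean count of at least 50 and in limma on FPKM values of at least 1. The 3 called lower were TLR3, the sensor of double-stranded RNA (log2 fold change -0.78, SE 0.20), IL1RAP, the shared chain of the IL-1 receptor (-0.68, SE 0.06), and the lymphotoxin receptor LTBR (-0.26, SE 0.04). TLR3 lost its call without control replicate 2 or 3 or knockdown replicate 1 or 3, at edgeR adjusted p values of 0.081, 0.063, 0.071 and 0.061. TNFRSF1A, the main TNF receptor, had a log2 fold change of 0.03 (SE 0.03) and was not called. Among 21 adaptors and kinases, 6 were called lower and 2 higher (median 0.0097). This balance depended on the scaling, with 6 lower and 6 higher when scaled by library size alone, 6 and 6 in limma on FPKM values of at least 1, and 6 and 4 with the GC trend removed. The largest falls among the called genes were in TAB2 (-0.41, SE 0.04) and TAB3 (-0.25, SE 0.04), which bind the kinase TAK1, in the IKK subunit CHUK (-0.35, SE 0.05) and in the adaptor TRAF2 (-0.26, SE 0.04). RNF31, named for its larger fitted fall (-0.64, SE 0.47), was not called (edgeR adjusted p = 0.38). Its counts were 464, 1566 and 404 in control samples. RBCK1, a part of the linear ubiquitin ligase, rose by 0.27 (SE 0.05) and the kinase RIPK1 by 0.21 (SE 0.05), the latter not called without control replicate 3 or knockdown replicate 1 or 3 (edgeR adjusted p = 0.054, 0.053 and 0.051). The second IKK kinase, IKBKB, had a log2 fold change of -0.03 (SE 0.07) and was not called.

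Of the 5 NF-kB subunits, 3 were called lower (median -0.23), and this count was 1 with scaling by library size alone and 1 with control replicate 1 and knockdown replicate 3 both left out. NFKB2 had a log2 fold change of -0.32 (SE 0.05), REL of -0.32 (SE 0.10) and NFKB1 of -0.23 (SE 0.05). RELA (-0.06, SE 0.04) and RELB (-0.13, SE 0.11) were not called. REL lost its call without any of the control samples or without knockdown replicate 2 (edgeR adjusted p from 0.062 to 0.10), and NFKB1 without knockdown replicate 2 or 3 (0.074 and 0.056). Without knockdown replicate 3 REL was -0.19, still called. The REL call was also lost with scaling by library size alone (-0.26, edgeR adjusted p = 0.086) and with the GC trend removed (-0.22, edgeR adjusted p = 0.12). The NFKB1 call was lost with scaling by library size alone too (-0.17, edgeR adjusted p = 0.056), and NFKB2 was the subunit called lower under each of the 17 other settings. RELB was -0.052 without control replicate 1 and -0.20 without knockdown replicate 2. Of 6 further IkB family genes (median -0.32), 3 were called lower, namely the atypical NFKBIZ (-0.48, SE 0.09) and the cytoplasmic inhibitors NFKBIB (-0.39, SE 0.09) and NFKBIE (-0.39, SE 0.09). NFKBIB was just outside the threshold without control replicate 1 (edgeR adjusted p = 0.050) or knockdown replicate 2 (0.055). Leaving out 1 sample gave 2 to 4 genes called. With control replicate 1 and knockdown replicate 3 both left out the count was 1, since NFKBIE (edgeR adjusted p = 0.068) and NFKBIB (0.099) lost their calls. These values stood beside the log2 fold change of -0.07 for NFKBIA.

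Other feedback genes that act on ubiquitin or on IRAK kinases were called lower in 7 of 10 cases, at small sizes (median -0.13). TNIP2, a partner of TNFAIP3, had a log2 fold change of -0.33 (SE 0.05), the kinase-dead IRAK3 of -0.30 (SE 0.09), and the deubiquitinases CYLD and OTUD7B of -0.27 (SE 0.08) and -0.25 (SE 0.04). IRAK3 lost its call in 5 and CYLD in 5 of the 6 leave-one-out fits. The calls of TNIP1, ITCH and OTULIN, named here because they lay just inside the threshold, had edgeR adjusted p values of 0.046, 0.047 and 0.048, and all 3 were lost with scaling by library size alone, with no filter on low counts and in limma. The list's count fell from 7 to between 2 and 4 in the leave-one-out fits and to 2 with scaling by library size alone. Both IRAK3 and CYLD were still called without control replicate 3, and the edgeR adjusted p otherwise ranged from 0.073 to 0.12 for IRAK3 and from 0.051 to 0.14 for CYLD.

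Among 24 other known NF-kB target genes, 8 were called lower and none higher, and 20 had a log2 fold change below 0 (median -0.24). The count of 8 was 5 without knockdown replicate 2 and 5 with no filter on low counts. SAA1, an acute-phase protein of the liver, fell from 59.3 ± 1.79 to 32.0 ± 3.06 CPM (log2 fold change -0.89, SE 0.07), and its neighbour SAA2, with which it may share reads, had a log2 fold change of -0.64 (SE 0.17). The mitochondrial dismutase SOD2 fell from 346 ± 3.56 to 255 ± 15.4 CPM (-0.44, SE 0.04). TNFRSF9, a costimulatory receptor, was low at 1.37 ± 0.427 and 0.598 ± 0.103 CPM (-1.19, SE 0.32). TNFRSF9 was not called without control replicate 1 or knockdown replicate 2 or 3 (edgeR adjusted p = 0.088, 0.077 and 0.070), and SAA2 not without control replicate 2 or 3 or knockdown replicate 1 or 2 (0.057, 0.080, 0.061 and 0.087). The early response gene IER3 had a log2 fold change of -0.19 (SE 0.06, edgeR adjusted p = 0.053) and was called lower without knockdown replicate 3 (-0.27, edgeR adjusted p = 0.0071), with the GC trend removed (-0.25, edgeR adjusted p = 0.020) and in DESeq2 (-0.19, adjusted p = 0.0045).

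Regulators of the decay of chemokine and IL6 mRNA changed in both directions (median -0.11). Of 9 tested, the Roquin genes RC3H2 (-0.37, SE 0.05) and RC3H1 (-0.26, SE 0.08) and the RNA-binding proteins KHSRP (-0.19, SE 0.03) and HNRNPD (-0.11, SE 0.03) were called lower. This count of 4 was 2 or 3 in the leave-one-out fits. ZFP36L1, which promotes decay of AU-rich transcripts, rose from 49.8 ± 1.27 to 63.5 ± 0.817 CPM (0.35, SE 0.04). RC3H1 lost its call when any sample but control replicate 1 was left out (edgeR adjusted p from 0.076 to 0.11). HNRNPD lost its call in all 6 leave-one-out fits (0.052 to 0.10), and its log2 fold change was 0.019 with the GC trend of each library removed.

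**Figure D4:**
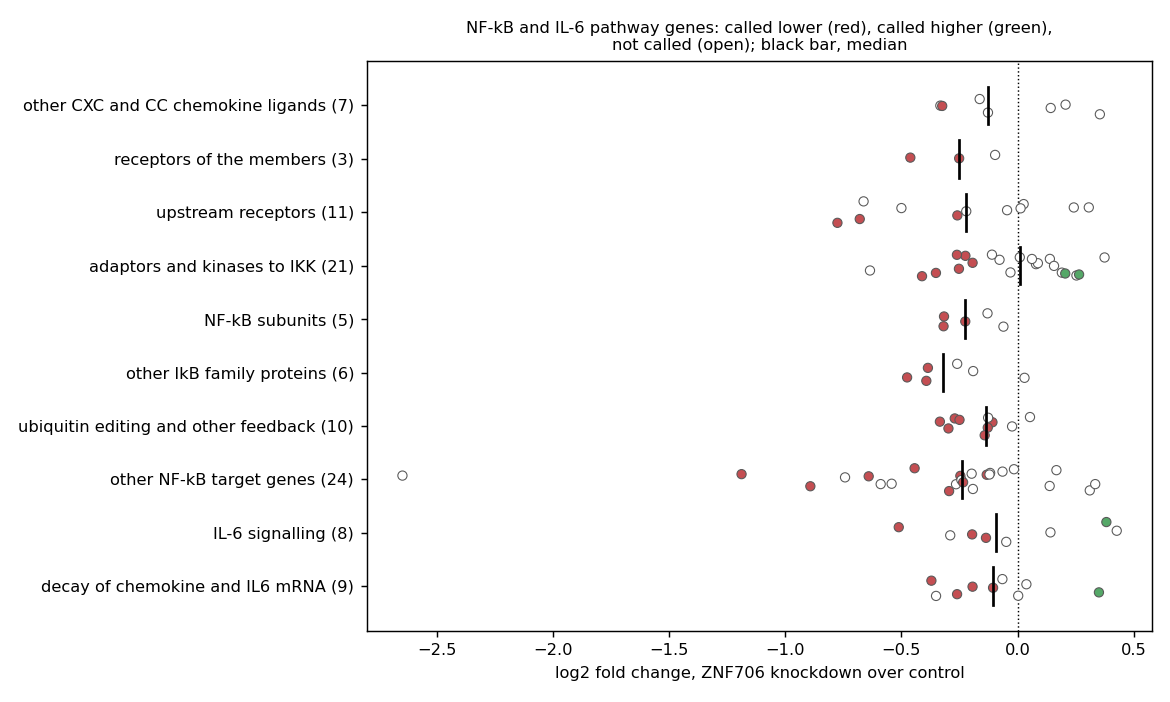
Fitted log2 fold change of ZNF706 knockdown over control (horizontal axis) for the tested genes of the 10 pathway lists (rows, number tested in brackets); red points were called lower, green higher and open points not called at an edgeR adjusted p below 0.05, and black bars are list medians. The medians lay between -0.32 for the other IkB family genes and 0.0097 for the adaptors and kinases.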

How the data were processed

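RNA from LM3 cells was sequenced on a NovaSeq system, and the authors mapped the reads to the human genome with HISAT2. The submitters' processing notes name cutadapt 1.9, FastQC and GRCh38. The counting program and its handling of strand are not given in the sources used here. The authors deposited a table with raw counts and FPKM values per gene for 6 samples, 3 per group, and group membership was taken from the labels. Gene positions are those of the deposited table, whose annotation release is not given in the sources used here. GENCODE release 29 served only for GC content, taken from the longest transcript of each gene.

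The 10 genes, the pathway and marker lists and the settings were chosen with earlier results of these data known. Deposited counts passed filterByExpr, were normalised by TMM and entered the quasi-likelihood F test of edgeR 4.0.16 (R 4.3.3; glmQLFit, glmQLFTest) with a term for group, and p-values were adjusted over 18390 genes (Benjamini-Hochberg, threshold 0.05). The study itself used DESeq2. SE was obtained as the size of the fitted change over the root of its F statistic. The summed CXCL1, CXCL2 and CXCL3 counts replaced their rows in a separate fit. Deposited FPKM values were used for levels and, as log2(FPKM + 0.1) or log2(FPKM + 1), in limma 3.58.1. DESeq2 1.42.0, other scaling and filters, a replicate block and each sample left out were the alternatives. Removing each library's GC trend and leaving out 2 libraries were added after seeing the data. Named list genes were the called genes with the largest change, at most 4 per list and direction, and genes of a stated role. Replicates differed by more than sampling noise (chi-square per gene at least 12.6). Per-sample depth was at least 62684076 counts, and intervals cover the spread between these samples only.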

Additional observations from a re-analysis of the deposited data

How the results depend on the processing

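Of 156 fitted log2 fold changes of the 10 genes under 17 other settings, 153 were below 0. The 3 above 0 were all of CXCL5, which ranged from -1.50 to 0.37 when 1 sample was left out (0.14 without control replicate 3, 0.37 without knockdown replicate 3) and was 0.13 with control replicate 1 and knockdown replicate 3 both left out. Leaving out 1 sample gave 3 to 5 of the 10 genes called lower, 4 to 8 with groups that did not overlap (8 without control replicate 1), beside 45.6% to 48.0% of all genes in these smaller groups, and 2648 to 3424 called genes overall. With no filter on low counts 3 were called lower, since CXCL2 and CCL20 had adjusted p values of 0.071 and 0.092 over 31319 genes. In limma on log2(FPKM + 0.1) with no filter, 2 of the 10 and 2668 genes in all were called. With control replicate 1 and knockdown replicate 3 both left out, 3 were called lower, 8 did not overlap (beside 59.3% of all genes with 2 samples a group), and the summed CXCL1, CXCL2 and CXCL3 changed by -0.66. The cause of these differences was not tested.

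Samples of the same number were only weakly alike (r = 0.049, -0.00051 and 0.092, with 2 of 3 matching their own number best). With so few samples these values cannot show whether samples of the same number shared anything beyond it. With the replicate block, 4361 genes and 5 of the 10 were called, IRAK3, CYLD and OTULIN were lost (adjusted p 0.053, 0.063 and 0.054) and IER3 was gained (0.015). No other gene that the text names with a call changed it under the block. Signs also turned for genes that were close to 0. IKBKB was 0.023 with library size alone, -0.077 to 0.0048 when 1 sample was left out (positive without knockdown replicate 3), 0.015, 0.010 and 0.015 in the 3 limma fits and 0.015 with both libraries left out. With the GC trend removed HNRNPD was 0.019 and TNFRSF1A -0.030, and CXCL10 ranged from -0.29 to 0.072 when 1 sample was left out (0.072 without control replicate 2). Library-size scaling moved the median of all genes to 0.063. A mean count of at least 50 tested 7 of the 10 genes and a mean FPKM of at least 1 tested 5. CXCL1 had no adjusted p in DESeq2, and the GC trend was not run for the summed genes. The low counts of CXCL1, CXCL3 and CXCL5 limit what could be detected for them.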
